A study of Gallus gallus with 3 samples.

Results

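Transcripts of 99 chaperone and proteasome genes were compared between cultured chicken primordial germ cells (PGCs), the migratory embryonic precursors of eggs and sperm, and chicken embryonic stem cells (ESCs), which stood for early somatic cells. The genes were chosen by symbol out of 19152 counted genes, of which 11804 had a symbol in the deposited table. Their families were the heat-shock transcription factors (HSF), the HSP70 proteins and their relatives (HSPA, HSPH), the small heat-shock proteins (HSPB), the mitochondrial chaperonin pair (HSPD1, HSPE1), the J-proteins (DNAJA, DNAJB, DNAJC), the cytosolic chaperonin (CCT2 to CCT8 and TCP1) and the proteasome genes (PSMA to PSME, PSMG). The rule used symbols and no measured value.

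Chaperones and the proteasome decide between them whether a new or damaged protein is folded or degraded. J-proteins hand unfolded clients to HSP70 proteins, which release them through cycles of ATP hydrolysis, the ring-shaped chaperonins enclose a client while it folds, and heat-shock factors switch on many of these genes when unfolded protein accumulates. The proteasome is a barrel, the core particle, built of alpha subunits (PSMA) and beta subunits (PSMB, some of which cut protein), capped by a regulatory particle with an ATPase ring (PSMC) and non-ATPase subunits (PSMD) that receive ubiquitin-tagged proteins.

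Bulk RNA sequencing of total RNA was available for PGC replicates 2 and 3 and for ESC replicate 2. The labels gave no genotype, sex, strain or treatment for these 3 libraries, and the study's methods called its replicates biological without saying which cultures they came from. The deposited tables also have columns headed as replicate 1 of both cell types, which matched no sample label and were not used here. With 1 labelled ESC library, the 2 PGC libraries gave the only replicate error, and a difference between cell types had no replicate check on the ESC side. The study's methods name more than 1 sequencing instrument, provider and read length without assigning them to libraries. Whether these differed between the 3 libraries is not in the labels, so their part in the ratios cannot be told apart. The libraries held between 19754278 and 20568106 counts. Mitochondrial genes took 4.44% and 6.54% of the counts in the PGC libraries and 10.1% in the ESC library.

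The labelled cell types were checked against marker genes. All 5 germ cell markers matched (of 6 listed) were higher in both PGC libraries, and DAZL, an RNA-binding protein of germ cells, had 45865 and 47278 counts in the PGC libraries against 16 in the ESC library. Of 7 pluripotency markers, 4 were lower in the PGC libraries and none was higher, and NANOG had 4455 and 6131 counts against 4284. Fibroblast markers summed to 149 and 197 TPM (transcript abundance scaled to gene length and depth) in the PGC libraries and 46.4 TPM in the ESC library, with 2 of 10 higher and 5 of 10 lower. COL3A1 had 12768 and 8382 counts in the PGC libraries against 237, COL1A2 had 1150 and 6813 against 701, and DCN was nearly absent from the PGC libraries with 1 and 5 counts, against 123. The remaining markers summed to 6.14 and 5.22 TPM against 2.91 for blood (3 of 9 listed genes matched), 6.88 and 3.73 TPM against 17.7 for endoderm (5 of 6 matched, mostly GATA4 in the ESC library, with 7 and 10 counts in the PGC libraries against 967, and SOX17 at 0 counts in the ESC library) and 43.4 and 67.8 TPM against 20.3 for neural cells (3 of 5 matched, nearly all NES). The part of other cell types in the results was not tested, and in bulk RNA fewer cells of a type and less RNA per cell cannot be told apart.

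Expression was given as CPM (counts scaled to library size) after scaling by the trimmed mean of M-values (TMM), and a gene was called higher or lower when both PGC libraries differed from the ESC library by 2-fold or more with the same sign. A total of 95 of the 99 genes reached 10 counts in a library and were compared. Of these, 10 (10.5%) were higher in PGCs, where 21.6% of all 14489 genes compared were higher, and 7 (7.37%) were lower, where 15.8% of all genes were lower. Most of these genes, 78 of 95, were called in neither direction. The signs leaned to the negative side, with 60 genes (63.2%) below the ESC library in both PGC libraries and 30 (31.6%) above it, against 44.1% and 45.8% of all genes. Of the 95 genes, 88 had at least 100 counts in every library, against 8559 of the 14489. The shares of calls and signs were not matched for counts, and the part of abundance in them was not tested.

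The PGC libraries lay close to each other for these genes. None of the 95 was 2-fold or more apart between PGC replicates 2 and 3, where 8.85% of all genes were. Among genes with at least 100 counts in every library, the log2 difference between the PGC libraries had an SD of 0.238 over 88 of the chaperone and proteasome genes and 0.364 over all 8559 genes. PSMD6, a lid subunit of the regulatory particle, was furthest apart of the well-counted members, at 1963 and 3106 counts.

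**Figure D1:**
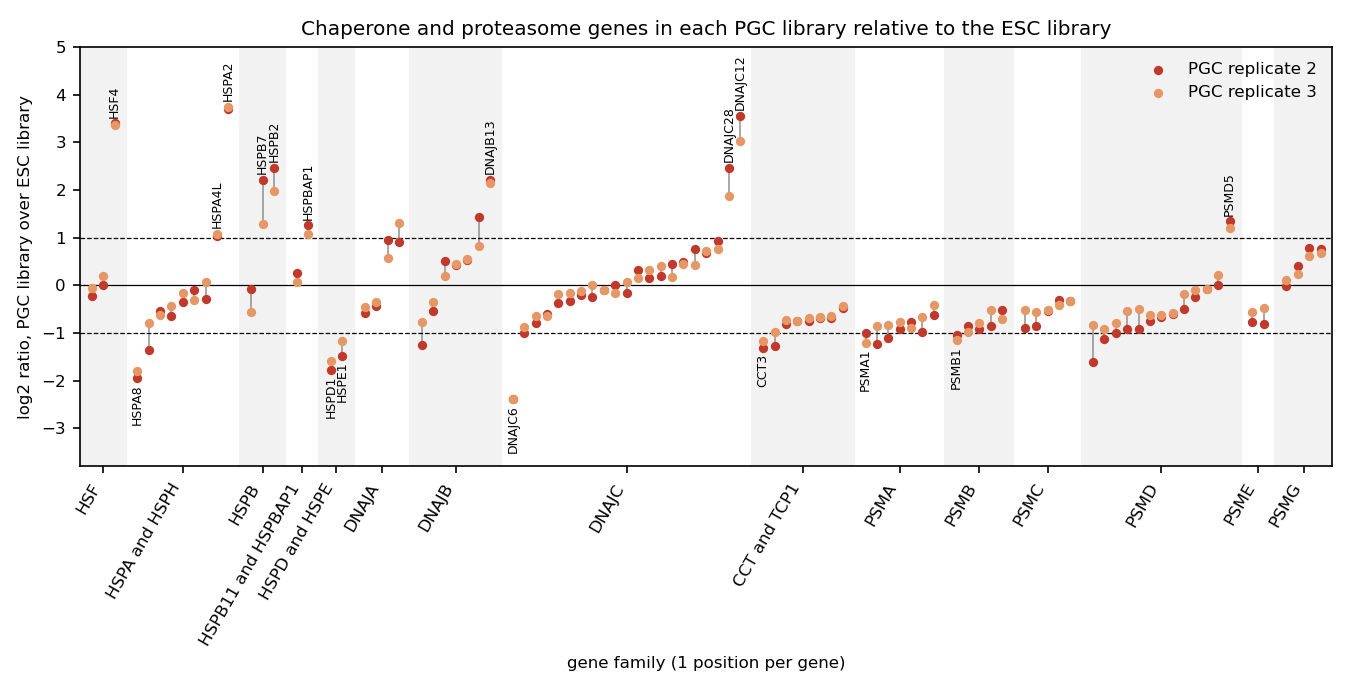
PGC over ESC log2 ratios (y axis) are drawn for the 95 genes compared, grouped by family and ordered by mean ratio within a family (x axis). Each gene has a point for PGC replicate 2 and one for PGC replicate 3 joined by a line, dashed lines mark 2-fold, and the 17 named genes are those called, 10 above and 7 below; HSF4 and HSPB2 had no count in the ESC library, so their heights depend on the prior count.

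Abundant HSP70 genes were called in opposite directions. HSPA2, listed as HSP70 among its RefSeq synonyms and known in mammals for its high expression in spermatogenic cells, had 1181 and 1211 CPM in the PGC libraries against 90.3 CPM in the ESC library (26454 and 25235 counts against 1604). The log2 ratios were 3.71 and 3.74, the highest mean ratio among the chaperone and proteasome genes with counts in the ESC library. HSPA8, the constitutive HSC70 that folds new proteins and uncoats clathrin vesicles, went the other way with 1254 and 1388 CPM in the PGC libraries against 4861 CPM in the ESC library, or -1.96 and -1.81 as log2 ratios. HSPA2 lies on chromosome 5 (52952583 to 52954953, minus strand) and HSPA8 on chromosome 24 (3073404 to 3080079, plus strand) of galGal5.

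The make-up of the HSP70 pool differed accordingly. On the TPM scale, which is per length and so allows genes to be compared, HSPA2 made up 26.4% and 24.4% of the summed HSPA and HSPH transcripts in the PGC libraries and 1.12% in the ESC library. HSPA8 made up 28.7% and 28.6% in the PGC libraries and 61.8% in the ESC library. HSPA2 stood at 0.919 and 0.851 of the HSPA8 level in the PGC libraries and at 0.0181 of it in the ESC library. By TPM, HSPA8 ranked 1 among the 99 genes in every library, while HSPA2 ranked 2 in both PGC libraries and 60 in the ESC library. The summed level of the family was 4300 and 4121 TPM in the PGC libraries and 5204 TPM in the ESC library. In CPM after TMM scaling the gap was wider, with sums of 4940 and 5545 CPM in the PGC libraries and 8650 CPM in the ESC library. HSPA2 and HSPA8 encode closely related proteins, and how reads that fit both were counted is not given in the sources used here.

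**Figure D2:**
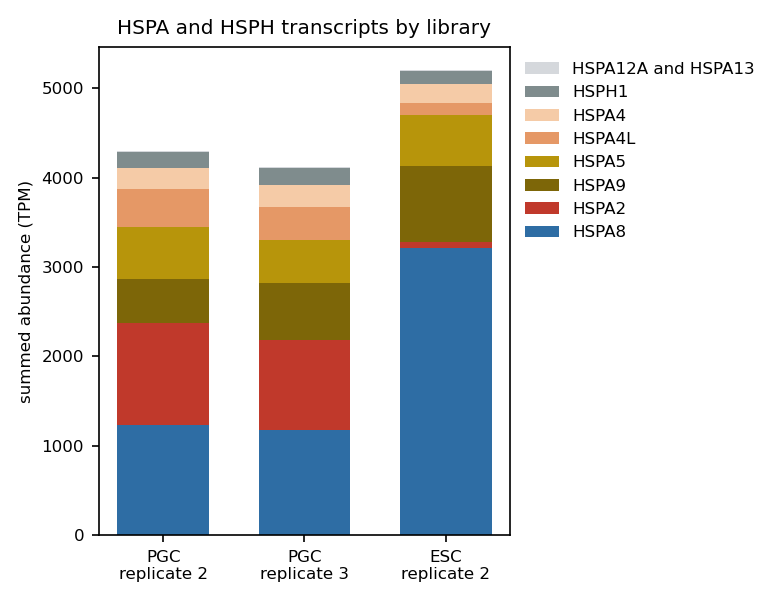
Stacked bars give the abundance of HSPA and HSPH transcripts (y axis, TPM) in PGC replicate 2, PGC replicate 3 and ESC replicate 2 (x axis), 1 bar per library with no error bar. HSPA8 fills 28.7% and 28.6% of the PGC bars and 61.8% of the ESC bar, and HSPA2 fills 26.4% and 24.4% of the PGC bars and 1.12% of the ESC bar.

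HSPA4L was the other HSP70 relative to pass. It belongs to the HSP110 group, which exchanges nucleotide on HSP70 proteins, and had 12857 and 12459 counts in the PGC libraries against 5009 in the ESC library (log2 ratios 1.03 and 1.08). Its paralogue HSPA4 had 8733 and 9349 counts against 8891, so that the HSPA4L to HSPA4 ratio in TPM was 1.71 and 1.55 in PGCs and 0.654 in ESCs. HSPH1, the third of the group, had log2 ratios of -0.28 and 0.06. HSPA5 (BiP), the HSP70 protein of the endoplasmic reticulum, was not called, at 595 and 560 CPM against 864 CPM. HSPA9, the HSP70 protein of mitochondria, had log2 ratios of -1.36 and -0.78 and missed the call through PGC replicate 3.

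Among the partner proteins of HSP70, 10 of 13 listed helper genes were matched, and BAG2, BAG6 and HSPBP1 were not. Of the 10, only SIL1, a nucleotide exchange factor of the endoplasmic reticulum, was called. It had 733 and 584 counts in the PGC libraries against 132 in the ESC library. The median of these 10 was -0.33 on the log2 scale, beside 0.03 over all genes. HSP90 genes and their co-chaperones (11 of 13 listed, without STIP1 and CDC37) had 1 higher, 2 lower and a median of -0.47. For both lists, the shares over all genes compared were 21.6% higher and 15.8% lower. HSP90AA1 had the highest TPM in each PGC library among the chaperones listed here. In CPM after TMM scaling it had 10595 and 11157 in the PGC libraries against 5902 in the ESC library. Its log2 ratios of 0.84 and 0.92 on that scale stopped short of 2-fold. On the TPM scale it had 8155 and 7420 TPM against 3053 TPM, more than 2-fold apart in both PGC libraries. The co-chaperone UNC45B was higher (63 and 24 counts against 2), and TRAP1, the mitochondrial HSP90, and AHSA1, which stimulates the HSP90 ATPase, were lower.

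Of the heat-shock factors, HSF2, HSF3 and HSF4 were found by symbol and HSF1 was not, so HSF1 was not assessed. The well-counted ones, HSF2 and HSF3, had ratios close to 0. HSF2 had 4922 and 5122 counts in the PGC libraries against 4561 in the ESC library, and log2 ratios of -0.22 and -0.06. HSF3, a heat-shock factor of birds, had 2038 and 2162 counts against 1601, and log2 ratios of 0.01 and 0.20. The sign for HSF2 depended on the scaling, its mean log2 ratio running between -0.19 and 0.32 over the alternative settings. HSF4, known in mammals for its role in the lens, was the only one called, with 21 and 19 counts in the PGC libraries and 0 in the ESC library. Set against the 3 counts that a count of 0 allows in the ESC library, HSF4 was at least 5.55-fold higher in PGC replicate 2 and at least 5.40-fold higher in PGC replicate 3.

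Few J-proteins were called. Their families DNAJA, DNAJB and DNAJC held 4, 9 and 21 genes, of which 4, 7 and 21 were compared. DNAJB1 and DNAJB11 were not found by symbol and were not assessed. Of those compared, 3 were higher and 1 was lower, where 21.6% and 15.8% of all genes compared were. DNAJC12, a J-protein that in humans assists the aromatic amino acid hydroxylases, had 156 and 108 CPM in the PGC libraries against 13.2 CPM in the ESC library (3483 and 2242 counts against 234), a log2 ratio of 3.55 and 3.02. DNAJC28 had 885 and 549 counts against 126. DNAJB13, a component of motile cilia and sperm flagella in mammals, was higher at a low level with 78 and 69 counts against 12.

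DNAJC6 (auxilin) was the J-protein lower in PGCs, with 39 and 36 counts in the PGC libraries against 169 in the ESC library and log2 ratios of -2.39 and -2.40, the lowest mean among the 95 genes. Auxilin brings HSPA8 to clathrin coats. DNAJA1, the main cytosolic HSP70 partner of its family, had 8942 and 10979 counts against 3786 and missed the call through PGC replicate 2 (log2 ratios 0.91 and 1.31). DNAJA4 had 6801 and 4871 counts against 2802. The leading DNAJA gene by TPM differed between libraries, being DNAJA4 in PGC replicate 2 (545 TPM), DNAJA1 in PGC replicate 3 (438 TPM) and DNAJA2 in the ESC library (351 TPM). DNAJA3 of mitochondria had log2 ratios of -0.59 and -0.45, the lowest of its family, and its exons share 82 bases with CORO7 on the other strand. DNAJB6, which holds back protein aggregation, led the DNAJB genes by TPM (244 and 214 TPM in the PGC libraries against 113 TPM), DNAJB14 of the endoplasmic reticulum had the lowest ratios of its family (-1.25 and -0.77), and DNAJC8, a splicing-associated J-protein, led the DNAJC genes by TPM (287 and 266 TPM against 224 TPM).

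Of the J-proteins, 3 genes (DNAJA1, DNAJB5 and DNAJC21) lie on the sex chromosome Z, and all 3 were above the ESC library in both PGC libraries. The 805 chromosome Z genes compared had a median log2 ratio of 0.77 (0.58 and 0.93 by PGC library), against -0.01 for genes outside it. The part of chromosome Z dosage in these 3 ratios was not tested.

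The 5 small heat-shock protein genes found by an HSPB symbol had no more than 182 counts in any library. Small heat-shock proteins under other symbols, if any, were not assessed. HSPB1 had 0 and 0 counts in the PGC libraries against 7 in the ESC library, HSPB8 had 0 and 1 against 3, and neither was compared. HSPB7 had 84 and 40 counts against 13 and was higher. HSPB2 had 10 and 6 counts against 0 and reached the minimum only through PGC replicate 2. Set against the 3 counts allowed in the ESC library, with the PGC counts taken as exact, it was 2.64-fold higher in PGC replicate 2. In PGC replicate 3 it was 1.70-fold higher, so its 2-fold call rested on the prior count. The other 9 of the 10 higher calls, HSF4 among them, reached 2-fold with a count of 0 set at 3. HSPB9, listed as HSP25 among its synonyms, was the most abundant of the family by mean TPM, with 182 and 120 counts against 152. The J-proteins DNAJB2 and DNAJB8 were also below the minimum, at 0 and 1 counts against 3 and at 0 and 0 against 4. Of the 852 exon bases of DNAJB2, 784 are shared with PTPRN on the other strand. Since the strand setting of the counting is not stated, the low counts of DNAJB2 do not show that it was hardly expressed.

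A pair of genes carried the HSPB letters without being small heat-shock proteins. HSPBAP1, which binds a small heat-shock protein, had 340 and 280 counts in the PGC libraries against 112 in the ESC library and was higher. HSPB11, an intraflagellar transport protein also called IFT25, had 211 and 172 counts against 139.

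Among the ring-shaped chaperonins, the mitochondrial pair was lower in PGCs and the cytosolic ring leaned the same way by less than 2-fold. HSPD1 (HSP60), the mitochondrial chaperonin, had 813 and 921 CPM in the PGC libraries against 2780 CPM in the ESC library (18211 and 19190 counts against 49378), giving log2 ratios of -1.77 and -1.59. HSPE1 (HSP10), the lid of the HSPD1 ring, had 207 and 258 CPM against 580 CPM, with log2 ratios of -1.49 and -1.17. Both were called lower, HSPE1 not so under total counts or TPM scaling (mean log2 ratio -1.01 or -0.86). The genes stand head to head on chromosome 7 of galGal5, HSPD1 at 10239404 to 10248714 on the minus strand and HSPE1 at 10247822 to 10254145 on the plus strand. Their exons share 176 bases on opposite strands, and since the strand setting of the counting is not stated, reads from that stretch cannot be assigned to either.

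A set of 9 mitochondrial chaperones and their helpers was compiled after the values had been seen. It had 3 members lower (HSPD1, HSPE1 and TRAP1), none higher, and a median of -0.52. Among all genes compared, 15.8% were lower and 21.6% higher. The set is not complete, and its counts hold for these 9 genes only. Left out were the J-proteins DNAJC28, called higher (log2 ratios 2.46 and 1.88), and DNAJC11, not called (-0.33 and -0.17). The J-proteins of the inner membrane in that set had log2 ratios of 0.33 and 0.15 (DNAJC15) and of 0.15 and 0.33 (DNAJC19). The share of counts from mitochondrial genes was also lower in the PGC libraries, as given above, and its part in these ratios was not tested.

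All 8 subunits of the cytosolic chaperonin, which folds actin and tubulin, were below the ESC library in both PGC libraries under TMM, whereas CCT5 was not under TPM scaling (mean log2 ratio 0.02). Their median log2 ratio was -0.73 ± 0.04 (SD over 2 PGC libraries), made of -0.76 for PGC replicate 2 and -0.71 for PGC replicate 3. CCT3 was the 1 subunit called lower, though not under total counts or TPM scaling, with 2839 and 2926 counts in the PGC libraries against 5579 in the ESC library (log2 ratios -1.31 and -1.16). CCT5 lay closest to the ESC library, with 14103 and 13496 counts against 15508 and log2 ratios of -0.47 and -0.43. CCT2 was the most abundant subunit, at 839 and 767 TPM against 955 TPM, and CCT3 the least abundant, at 176 and 168 TPM against 292 TPM. The coefficient of variation over the 8 subunits was 38.9% and 37.1% in the PGC libraries and 29.9% in the ESC library. The 5 prefoldin and chaperonin helper genes matched (of 8 listed, without PFDN5, PFDN6 and VBP1) had no call and a median of 0.11. For the subunits and the helpers, the shares over all genes compared were 21.6% higher and 15.8% lower.

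**Figure D3:**
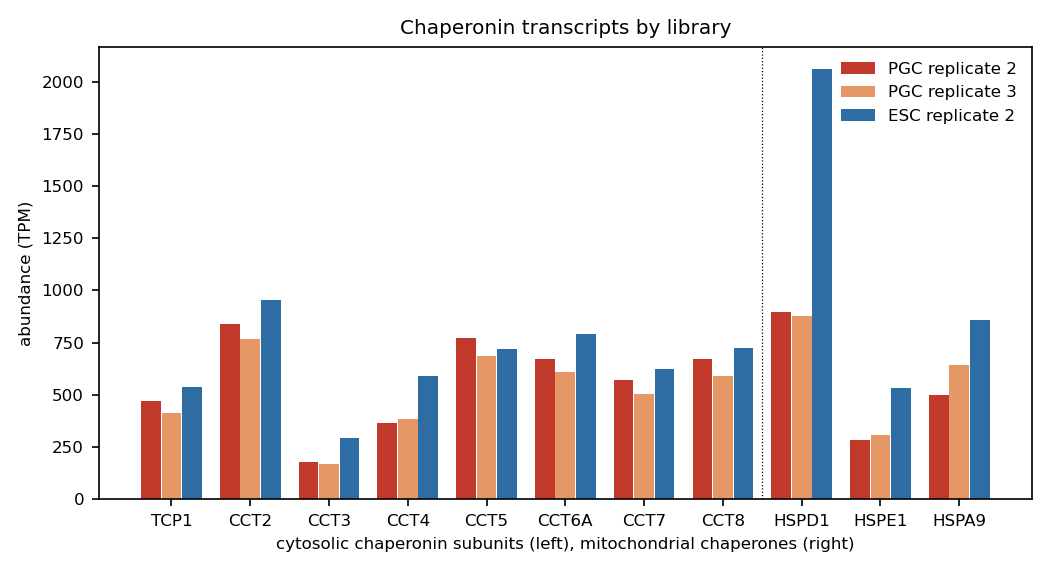
Bars give the abundance (y axis, TPM, starting at 0) of the 8 cytosolic chaperonin subunits and of the mitochondrial chaperones HSPD1, HSPE1 and HSPA9 (x axis) in PGC replicate 2, PGC replicate 3 and ESC replicate 2, from left to right for each gene. HSPD1 has 898 and 879 TPM in the PGC libraries against 2064 TPM, and on this unadjusted TPM scale CCT5 in PGC replicate 2 (773 TPM) is above the ESC library (721 TPM).

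Proteasome transcripts leaned below the ESC library as a group, by less than 2-fold for most genes. The 36 genes had a median log2 ratio of -0.68 ± 0.17 (SD over 2 PGC libraries), made of -0.78 for PGC replicate 2 and -0.55 for PGC replicate 3, and 30 of them were below the ESC library in both. Of the 36, 2 were called lower and 1 higher, where 15.8% and 21.6% of all genes compared were. The lower ones were PSMA1 and PSMB1. Neither was called with total counts, with TPM, with at least 10 counts in every library or without PGC replicate 3. PSMA1, an alpha subunit, had 2731 and 2209 counts in the PGC libraries against 4361 in the ESC library (log2 ratios -1.01 and -1.21). PSMB1, a beta subunit, had 2701 and 2314 counts against 4390 (log2 ratios -1.03 and -1.15).

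By part of the particle, the median log2 ratios were -0.84 for the 7 alpha subunits and -0.85 for the 5 beta subunits. They were -0.53 for the 5 ATPases and -0.64 for the 13 PSMD genes. The PSMD genes include PSMD5, PSMD9 and PSMD10, which are set with the assembly factors below. No gene carried the symbols PSMB5, PSMB6, PSMC4 or PSMD8, so these sets are not the whole particle. Within the alpha ring the ratios ran between -1.11 for PSMA1 and -0.52 for PSMA5, and PSMA3 (390 and 375 TPM in the PGC libraries against 496 TPM) was the most abundant in PGC replicate 3 and the ESC library, behind PSMA4 (414 TPM) in PGC replicate 2. Among the beta subunits PSMB4 had the highest mean ratio (-0.61), and PSMB7, which carries the trypsin-like activity, was the most abundant (278 and 260 TPM against 352 TPM).

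In the regulatory particle, PSMC5 and PSMC1 had the lowest mean ratios of the ATPases (-0.71 each) and PSMC6 the highest (-0.33, or 0.14 with TPM scaling), while PSMC1 (290 and 310 TPM in the PGC libraries against 353 TPM) was the most abundant in PGC replicate 3 and the ESC library, behind PSMC2 (328 TPM) in PGC replicate 2. PSMD6 had the lowest mean ratio of the PSMD genes, with log2 ratios of -1.60 and -0.84, and was not called. PSMD13 led them by TPM in the ESC library only (261 and 263 TPM in the PGC libraries against 385 TPM), and PSMD12 led in PGC replicate 2 (316 TPM) and PSMD7 in PGC replicate 3 (305 TPM). Both activator genes, PSME3 and PSME4, had negative ratios (-0.78 and -0.55, and -0.81 and -0.48).

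Assembly chaperones of the proteasome, which help subunits join and are absent from the finished particle, had ratios on both sides of 0. PSMD5, which despite its symbol is a chaperone of the ATPase ring, was the 1 proteasome gene called higher, with 2864 and 2408 counts in the PGC libraries against 897 in the ESC library (log2 ratios 1.34 and 1.19). PSMG1, which builds the alpha ring together with PSMG2, had 2340 and 2063 counts against 1098 (log2 ratios 0.76 and 0.68). PSMG2 had 2076 and 1704 counts against 1238, PSMG4 had 327 and 274 against 151, and PSMG3 had 1215 and 1231 against 972. None of the PSMG genes was called, and their median was 0.51.

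POMP, which carries the beta ring onto the alpha ring, was an exception among assembly factors, with 1924 and 2595 counts in the PGC libraries against 5496 in the ESC library, and was called lower. The division into structural subunits and assembly factors was drawn after the values had been seen, so it is a description. The 27 structural subunits found by a PSM symbol were all below the ESC library in both PGC libraries under TMM. By mean ratio, 26 were below it with total counts and 23 with TPM. The median of the 27 under TMM was -0.71, with mean ratios between -1.22 and -0.17. ADRM1 and SEM1, counted with the partners below, were not among the 27 (mean log2 ratios -0.96 and -0.88). The 9 assembly factors had 1 higher, 1 lower and a median of 0.11, where 21.6% of all genes compared were higher and 15.8% lower.

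**Figure D4:**
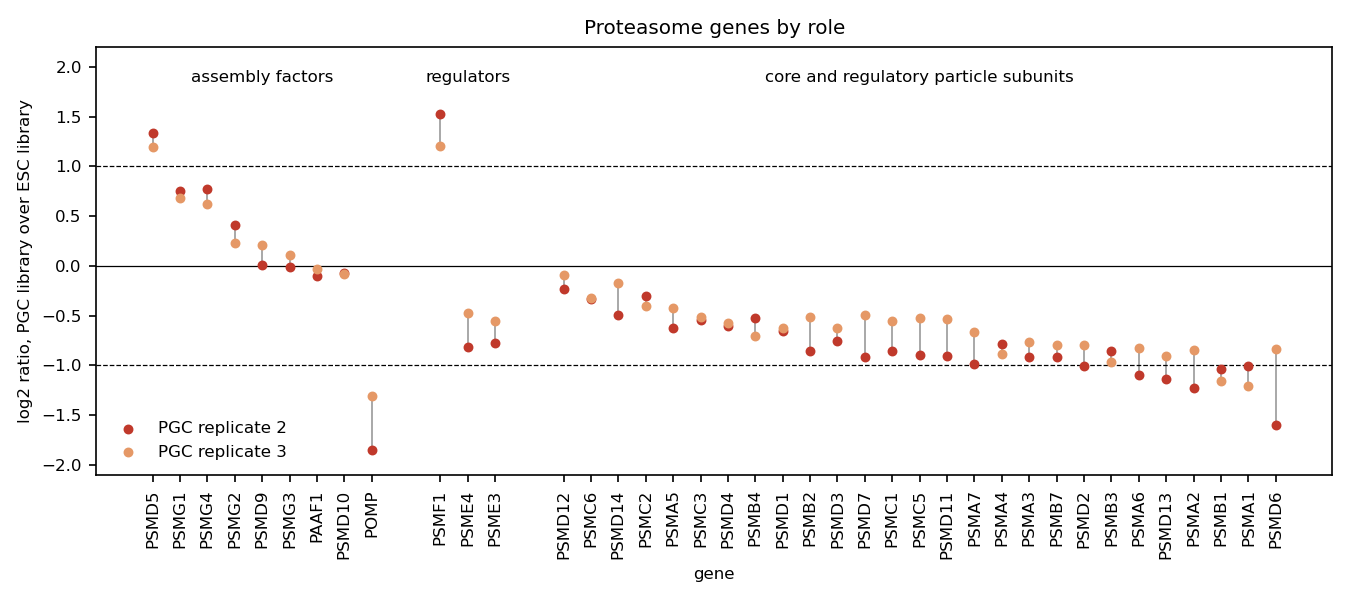
PGC over ESC log2 ratios (y axis) are shown for 9 assembly factors, 3 regulators and 27 core and regulatory particle subunits (x axis, ordered by mean ratio in each set), with a point for each PGC library and dashed lines at 2-fold. Under the TMM scaling drawn here all 27 subunits lie below 0 in both PGC libraries (23 by mean ratio with TPM), while PSMD5 and the inhibitor PSMF1 lie above 2-fold.

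Other genes of the degradation pathway were mixed. Of 16 partners of the proteasome, PSMF1, an inhibitor of the core particle, was higher (1639 and 1222 counts in the PGC libraries against 450), POMP was lower, and the median was -0.22. NFE2L1, the factor that raises proteasome genes when proteolysis falls short, was not called, with 2987 and 3702 counts against 4237. None of the 4 ubiquitin genes was called (median -0.46), and none of the 16 genes of the unfolded protein response of the endoplasmic reticulum (median -0.04). DDI2 of the partner list, UBA1 of the ubiquitin list and DDIT3 of the unfolded protein response list were not matched. Beside these lists, 21.6% of all genes compared were higher and 15.8% lower.

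As classes, the chaperonin and proteasome genes lay below the median gene, and the 51 heat-shock and J-protein genes compared lay closer to it. The median gene was taken over all genes compared, without matching for counts, and the part of abundance was not tested. The median over these 51 genes of the mean log2 ratio was -0.05. By PGC library the medians were 0.002 for PGC replicate 2 and 0.063 for PGC replicate 3 (SD 0.04), so the sign of the class median was not settled. Of the 51 genes, 9 were higher and 4 lower, where 21.6% and 15.8% of all genes were. Together the 99 genes took 2.09% and 1.95% of all TPM in the PGC libraries and 2.31% in the ESC library. Scaling mattered to the sign of small ratios: with total counts or TPM in place of TMM, the median over all genes was 0.34 or 0.49 in place of 0.03, calls were 12 higher and 3 lower or 15 higher and 3 lower, and 26 or 23 of the 27 structural subunits and 8 or 7 of the 8 chaperonin subunits kept a negative mean ratio. The shares of all genes called under total counts or TPM are not given here. Relative to the median gene of each setting, the chaperonin median ran between -0.84 and -0.67 over the filters and left-out libraries tried. The proteasome median ran between -0.80 and -0.56. A change of scaling shifts all genes nearly alike, so it could hardly move these differences and is no check on them. HSPA8, HSPD1 and DNAJC6 were the lower calls made under TMM, total counts and TPM alike.

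A count model gave more calls among the lower genes. With edgeR's quasi-likelihood test, which here had to assume that the lone ESC library varies as the PGC libraries do, 12 of the 95 genes were higher at an adjusted p under 0.05, where 21.2% of all genes were, and 25 were lower, where 20.6% of all genes were. Among the genes called by fold, these left out HSPB2 and HSPB7 of the higher ones and none of the lower ones. DESeq2, which had to make the same assumption, left out DNAJB13 and HSPBAP1 as well. Of the 27 structural proteasome subunits, 15 passed as lower and none as higher. Without PGC replicate 3 the 2-fold lower calls numbered 12, with 5 of the 7 among them and PSMA1 and PSMB1 lost, and without PGC replicate 2 they numbered 7. HSPB2 was not among the higher calls without PGC replicate 2. The shares of all genes called with a library left out are not given here.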

How the data were processed

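Total RNA of 2 PGC libraries and 1 ESC library was analysed. Per the study's methods, the authors aligned paired-end reads with TopHat and Bowtie to Ensembl transcripts of galGal5 and deposited whole-number counts per gene from featureCounts, not normalized. Versions and the strand setting are not given in the sources used here. The deposited signal, from which the symbols and alternative size factors were taken, was in 100% of values a count over its library's size factor. The authors' columns of fold changes and p-values were not used, nor were 4 columns of per-sample values that match no label. Each library held 19754278 to 20568106 counts, and the only replicate error came from the 2 PGC libraries.

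Genes with at least 10 counts in 1 library (14489 of 19152) were scaled by TMM in edgeR 4.0.16 (R 4.3.3), as log2 CPM with a prior count of 2, and each PGC library was divided by the ESC library. Levels between genes were compared as TPM from the counts and the deposited exon lengths. The procedure was also run on simulated counts with changes set in 200 well-counted genes, and its outcome is not given here. The simulation used the same spread for all genes and for the ESC library. It is therefore no check on the lone ESC library or on low-count calls. DESeq2 1.42.0 and edgeR tests, other scalings, filters, folds and left-out libraries were alternatives. The deposited size factors were added after seeing the data.

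Genes, lists and tests were chosen with earlier results of these data known. Named were the called genes, the highest and lowest ratio and highest mean TPM over the libraries in each family, and all HSF genes. HSPB11 and HSPBAP1 were set apart from the HSPB family afterwards, and other genes named were chosen after their values were seen. Symbols matched RefSeq for 99 genes, and promoter motifs were not analysed here.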

Additional observations from a re-analysis of the deposited data

How the results depend on the processing

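The 10 higher calls became 16 at 1.5-fold and 4 at 4-fold, and the 7 lower calls became 30 and 1. Except for edgeR, whose shares are given above, the shares of all genes called under the settings of this section are not given here. The counts are thus not a result about this set of genes. With total counts or TPM as the scaling, 3 genes were lower. The lower calls were 25 by edgeR and 28 by DESeq2 at an adjusted p under 0.05, and 7 to 12 with a PGC library left out. The median log2 ratio of heat-shock and J-protein genes (-0.05) was 0.26 with total counts, 0.41 with TPM, -0.11 with no filter, and 0.04 to 0.07 with a PGC library left out. The chaperonin median (-0.73) was -0.42 with total counts, -0.27 with TPM, -0.67 with at least 10 counts in every library, and -0.72 to -0.70 with a PGC library left out. Total counts gave a proteasome median of -0.36 and TPM one of -0.21, in place of -0.68. The shifts under total counts and TPM follow that of the median over all genes. With no filter the heat-shock and J-protein class held 55 genes in place of 51, with 30 in place of 26 below 0. The cause of the other differences was not tested. None of the 17 called genes changed sign under the scalings, filters and left-out libraries that gave them a value (HSF4 and HSPB2 had none with at least 10 counts in every library, nor HSPB2 without PGC replicate 2), and 5 of 25 other named genes did (CCT5, DNAJC8, HSF2, HSPB9 and PSMC6). By the rule, each called gene was 2-fold or more from the ESC library in both PGC libraries. The scalings and left-out libraries could therefore hardly have changed its sign, and its kept sign is no check on the call. No paired analysis was possible with 1 ESC library, and a shared replicate number does not say that cultures were paired. The single ESC library limits every comparison, and counts of 0 allow up to 3.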
